A study of Mus musculus with 30 samples.

Results

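Microglia that had refilled the brain by P60 after depletion were compared with juvenile P20 microglia, both from mice whose dams had received saline. The comparison rests on 6 of the 30 libraries of the series, chosen by their group names: 3 of P60 Saline + MG-REP and 3 of P20 Saline. All 14225 transcripts (13483 gene symbols) that the authors kept were tested. The mice were C57BL/6J offspring of saline-injected dams, the control group for dams given the viral mimetic poly(I:C), and no transgene was used. MG-REP animals ate chow with PLX5622, an inhibitor of the CSF1 receptor, from weaning into adolescence, and then control chow until P60, when they were killed. P20 animals were killed just before the age at which that diet began. Each library came from microglia of 1 whole brain, pulled out with magnetic CD11b beads. Such beads also take other CD11b-positive myeloid cells, so cells that arose from surviving microglia and cells that came from elsewhere are not told apart here.

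Microglia are the resident macrophages of brain tissue and need signals through CSF1R to survive. When that receptor is blocked most of them die, and after the drug is withdrawn the niche refills within days to weeks by division of the cells that remain. Mature microglia carry a set of so-called homeostatic genes (P2ry12, Tmem119, Cx3cr1, Sall1) that depends on brain signals such as TGF-beta, whereas young, dividing or challenged microglia lower part of this set and raise genes of phagocytosis, antigen presentation or interferon signalling.

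Age and repopulation change together between these groups and cannot be told apart in the comparison alone. P60 Saline + CTRL microglia, from P60 animals that never received the inhibitor, are therefore given beside many of the results, though not beside all. They share the P20 libraries with the first comparison. The direct contrast of P60 Saline + MG-REP with P60 Saline + CTRL is therefore given for some of the results. Elsewhere P60 Saline + CTRL is described by its levels or its difference from P20. Those values do not test it against P60 Saline + MG-REP. Xist, the RNA of the inactive X chromosome in female cells, lay at 161 to 193 TPM in all 6 libraries of the main comparison but at 124, 0.29 and 0.28 TPM in P60 Saline + CTRL libraries 1, 2 and 3, so the sexes differ between groups in the comparisons with P60 Saline + CTRL and not in the main one.

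The values are TPM (transcript abundance within a library, scaled for transcript length and depth). The spacing of low values put the reads counted at about 9010000 to 10460000 per library in the 6 libraries. Csf1r, at 4498 to 8551 TPM, was abundant in every library, as microglia would have it. Several libraries stood apart. P60 Saline + MG-REP library 1 correlated with libraries 2 and 3 at r = 0.968 and 0.965 over all transcripts, while those correlated at 0.989 with each other. P60 Saline + MG-REP library 2 held 5845 TPM of monocyte and neutrophil markers, against 339 and 523 TPM in libraries 1 and 3. P20 Saline library 1 held the most myelin RNA, 10079 TPM over 22 transcripts, against 6648 and 4667 TPM in libraries 2 and 3, and 1715 to 3278 TPM in the MG-REP libraries. Some of the counts that turn on these libraries are given with and without them.

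In repopulated against P20 microglia, 4409 of 14225 transcripts (31.0%) differed at an adjusted p under 0.05 in limma on log2(TPM + 1), 1541 (10.8%) of them higher and 2868 (20.2%) lower. P60 Saline + CTRL against the same P20 libraries gave 499 calls (3.51%; 1.02% higher and 2.49% lower), fewer when some libraries were left out (186 without P20 library 3, 331 without P20 library 1, 249, 318 and 249 without P60 Saline + CTRL library 1, 2 or 3) and 5 when only these groups were fitted, and P60 Saline + MG-REP against P60 Saline + CTRL gave 3805 (26.7%), 11.9% higher and 14.9% lower. The split between higher and lower depended on scaling. The median transcript lay at -0.19 on the log2 scale. Under median-ratio scaling, which moved it to -0.03, there were 2173 higher (15.3%) and 1695 lower (11.9%) calls, 27.2% in all, and under quantile normalization 1916 and 1894. Without MG-REP library 1 the counts were 1212 higher (8.52%) and 1910 lower (13.4%), 21.9% in all. They were 1262 higher and 2001 lower without P20 library 1, and 1485 and 2587 without MG-REP library 2. With the summed level of oligodendrocyte markers as a covariate they were 1283 (9.02%) and 1050 (7.38%), 16.4% in all. With only the 6 libraries of this comparison fitted there were 897 higher (6.31%) and 1637 lower (11.5%) calls, 17.8% in all. The count of each gene list below is to be read against the shares over all transcripts, 10.8% higher and 20.2% lower. Counts of the direct contrast with P60 Saline + CTRL are to be read against 11.9% higher and 14.9% lower.

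**Figure D1:**
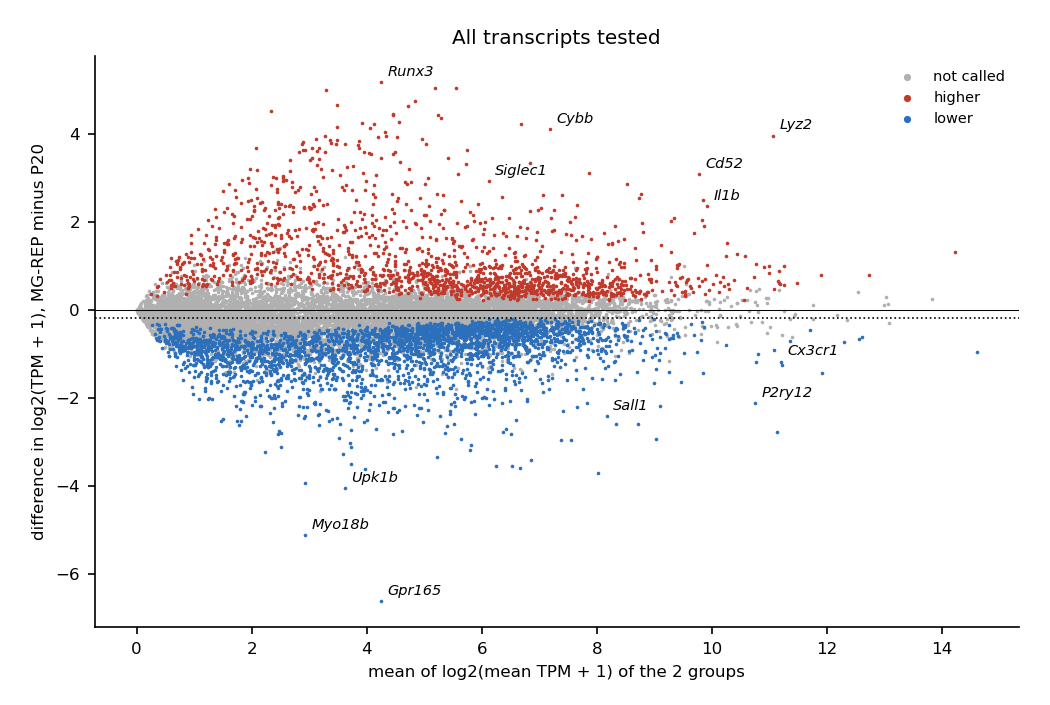
Each point is 1 of the 14225 transcripts, with the mean level of both groups on the horizontal axis and the difference between P60 Saline + MG-REP and P20 Saline on the vertical axis, both on the log2(TPM + 1) scale. Red points (1541) were called higher and blue points (2868) lower, and the dotted line marks the median of all transcripts at -0.19; Runx3 and Gpr165 lie at the outer ends.

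Cell division genes rose in the repopulated cells. Of 40 mitosis and cytokinesis transcripts 38 rose and none fell, with a median log2 difference of 3.14, against a background of 10.8% of transcripts called higher. Their summed level was 291, 243 and 230 TPM in the P20 libraries and 3783, 1596 and 1432 TPM in the repopulated ones, so each repopulated library lay above each P20 library and library 1 stood far above the other repopulated libraries. P60 Saline + CTRL libraries summed to 178 to 227 TPM. The exact permutation test of these sums gave p = 0.1, the smallest that 3 against 3 libraries allow. Without MG-REP library 1, 37 of the 40 still rose.

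Mki67, which encodes the Ki-67 protein of cycling cells, was measured at 4.56, 4.60 and 2.84 TPM at P20 and at 234, 93.9 and 82.9 TPM after repopulation, a log2 difference of 4.65 (SE 0.24, limma adjusted p = 1.93e-12). Top2a, the topoisomerase that untangles sister chromatids, went from 8.68, 7.65 and 4.06 TPM to 320, 120 and 110 TPM (4.44, SE 0.28, limma adjusted p = 4.13e-11). In both genes the groups did not overlap and library 1 was the highest. Ube2c, the ubiquitin-conjugating enzyme of the anaphase-promoting complex, rose from 5.74, 4.80 and 2.46 TPM to 261, 116 and 85.8 TPM, a log2 difference of 4.75 (SE 0.35). The cyclins Ccna2 and Ccnb2 rose by 4.45 (SE 0.28) and 4.28 (SE 0.25). None of these 5 genes was called between P60 Saline + CTRL and P20, where their log2 differences lay between -0.75 and 0.03. In younger brains their levels were of the same order as after repopulation: Mki67 averaged 162 TPM at E17 and 183 TPM at P7 in saline offspring, and Top2a 249 and 229 TPM.

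Replication genes also rose. Of 32 DNA replication transcripts 30 rose and none fell, with a median log2 difference of 1.39, and 26 did so without MG-REP library 1. The number was 13 with the oligodendrocyte covariate, against 36 of 40 for mitosis. Rrm2, the small subunit of ribonucleotide reductase, rose from 6.21, 3.46 and 2.23 TPM to 141, 58.2 and 46.2 TPM (3.97, SE 0.32, limma adjusted p = 1.71e-09). Clspn, the claspin of the replication checkpoint, rose by 2.80 (SE 0.26), the chromatin assembly subunits Chaf1b and Chaf1a by 2.74 (SE 0.33) and 2.50 (SE 0.27), and the GINS subunit Gins2 by 2.56 (SE 0.25). Mcm2, a subunit of the replicative helicase, was at 16.1, 15.5 and 20.4 TPM at P20 and at 136, 51.2 and 48.7 TPM after repopulation (1.96, SE 0.22). Pcna, the sliding clamp, was already at 109 to 148 TPM at P20 and rose by less, to 278, 160 and 141 TPM (0.56, SE 0.17, limma adjusted p = 0.0145). Without MG-REP library 1 the Pcna difference was 0.27 and was not called (limma adjusted p = 0.176).

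Promoters of the mitotic genes are shown because these transcripts moved together. The CHR element and the CCAAT box are the letters through which the DREAM complex and NF-Y are known to act on genes of late cell cycle. In the 250 bases before the RefSeq start sites (GRCm38.p6), on either strand, TTTGAA or TTTAAA stood in 18 of the 34 mitosis promoters held in the reference (52.9%) and in 25.5% of all 27018 promoters. Among the 10156 promoters of genes tested here the share was 17.5%. CCAAT stood in 24 of 34 (70.6%), in 34.5% of all 27018 and in 35.7% of these 10156. Both stood in 16 (47.1%) and in 8.99% of all 27018. Other lists held these letters as well: CCAAT stood in 11 of 18 promoters of the homeostatic list (61.1%), which fell, and in 16 of 25 replication promoters (64%), whereas TTTGAA or TTTAAA stood in 3 of the 25 (12%). These matches describe letters and not binding. In the windows below, read along the strand of the gene, capitals mark the match nearest to the start site, and TTCAAA and ATTGG are the same elements on the opposite strand.
Ube2c CHR, chr2:164769890-164769915, plus strand: agggttgcaaTTCAAAcgcgggcggc
Ube2c CCAAT, chr2:164769862-164769886, plus strand: cgagcctttgATTGGctagcgcagc
Mki67 CHR, chr7:135716462-135716487, minus strand: gccgttttggTTTGAAtcgggcgggc
Mki67 CCAAT, chr7:135716506-135716530, minus strand: gccgcctggcCCAATcgcagcactt
Top2a CHR, chr11:99024197-99024222, minus strand: tagataaaggTTCAAAtgaaactagg
Top2a CCAAT, chr11:99024233-99024257, minus strand: cgagtcggtgATTGGttcctctgat
Ccnb2 CHR, chr9:70421706-70421731, minus strand: gggactagaaTTTGAAaataagactg
Ccnb2 CCAAT, chr9:70421561-70421585, minus strand: gtgcgtctacCCAATagtgcgtcag

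**Figure D2:**
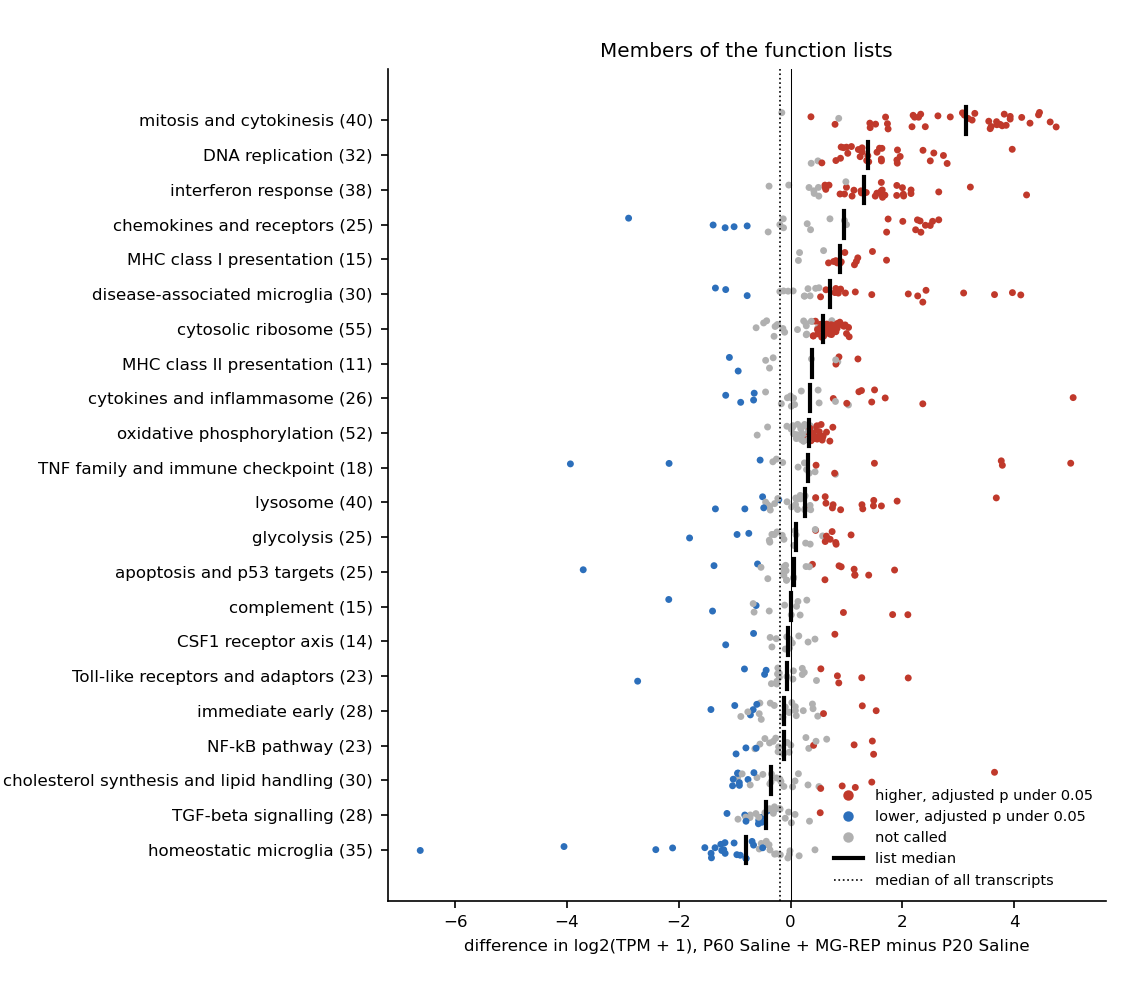
Each point is a transcript of a function list (number of transcripts in brackets), placed by its difference in log2(TPM + 1) between P60 Saline + MG-REP and P20 Saline, red where called higher, blue where called lower and grey otherwise; black bars are list medians and the dotted line is the median of all transcripts. The mitosis list has the highest median (3.14) and the homeostatic list the lowest (-0.80).

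Homeostatic genes fell. Of 35 homeostatic microglia transcripts 21 fell, none rose and 14 were not called, with a median log2 difference of -0.80 against a background of 20.2% of transcripts called lower. The number that fell was 16 under median-ratio scaling, 18 with the oligodendrocyte covariate and 20 without MG-REP library 1. In P60 Saline + CTRL against P20 none of the 35 fell and 2 rose, and in the direct contrast with P60 Saline + CTRL 22 were lower after repopulation.

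Sall1 (chr8:89027242-89044162, mm10), the transcription factor that holds microglial identity, was at 614, 686 and 579 TPM at P20, at 700, 567 and 710 TPM in P60 Saline + CTRL, and at 53.6, 169 and 175 TPM after repopulation. Its log2 difference from P20 was -2.41 (SE 0.29, limma adjusted p = 9.82e-07), and library 1 was the lowest. P2ry12, the purinergic receptor of microglial process movement, fell from 3841, 4538 and 2477 TPM to 609, 950 and 926 TPM (-2.11, SE 0.24, limma adjusted p = 2.62e-07) while P60 Saline + CTRL stood at 3422 to 4721 TPM. Cx3cr1, the fractalkine receptor, fell from 3275, 3839 and 3560 TPM to 1539, 1614 and 1580 TPM (-1.17, SE 0.19, limma adjusted p = 4.37e-05). Repopulated libraries agreed closely in Cx3cr1 although they differed in Sall1.

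Tmem119, a surface marker of mature microglia, fell from 2714, 3434 and 2774 TPM to 1720, 1520 and 1522 TPM (-0.90, SE 0.22, limma adjusted p = 0.00362), a call lost under median-ratio scaling (-0.68, limma adjusted p = 0.0862). Slc2a5, the fructose transporter, fell by 1.53 on the log2 scale (SE 0.34, limma adjusted p = 0.00138), and was not called with the oligodendrocyte covariate (limma adjusted p = 0.12).

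Csf1r, the receptor the drug blocks, was at 7263, 8551 and 6958 TPM at P20 and at 4498, 4948 and 4904 TPM after repopulation (-0.66, SE 0.19, limma adjusted p = 0.0105), a difference not called under median-ratio scaling (-0.45, limma adjusted p = 0.269) or without P20 library 2 (limma adjusted p = 0.0507). Over the CSF1 receptor axis 1 of 14 transcripts rose (7.14%) and 2 fell (14.3%), shares below those over all transcripts. The riser was Tyrobp, the DAP12 adaptor, with 4960, 4988 and 4942 TPM against 2316, 3425 and 2961 TPM (0.79, SE 0.20), not called with the oligodendrocyte covariate (0.26, limma adjusted p = 0.599), and the ligand transcript Csf1 fell by 1.16 (SE 0.31, limma adjusted p = 0.00665), a call lost without MG-REP library 1 (-0.89, limma adjusted p = 0.0614). Of 28 TGF-beta signalling transcripts 9 fell and 1 rose (median -0.44), and 4 fell under median-ratio scaling and 5 with quantile normalization or the oligodendrocyte covariate. Smad3, a mediator of the receptor, fell from 117, 115 and 149 TPM to 69.2, 73.8 and 70.3 TPM (-0.82, SE 0.13, limma adjusted p = 3.74e-05). The inhibitory Smad7 fell by 1.14 (SE 0.19) and a transcript of the receptor Tgfbr1 by 0.80 (SE 0.20), the latter not called under quantile normalization (-0.54, limma adjusted p = 0.0725). The direct contrast with P60 Saline + CTRL called 4 of the 28 TGF-beta transcripts lower and 1 higher after repopulation.

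**Figure D3:**
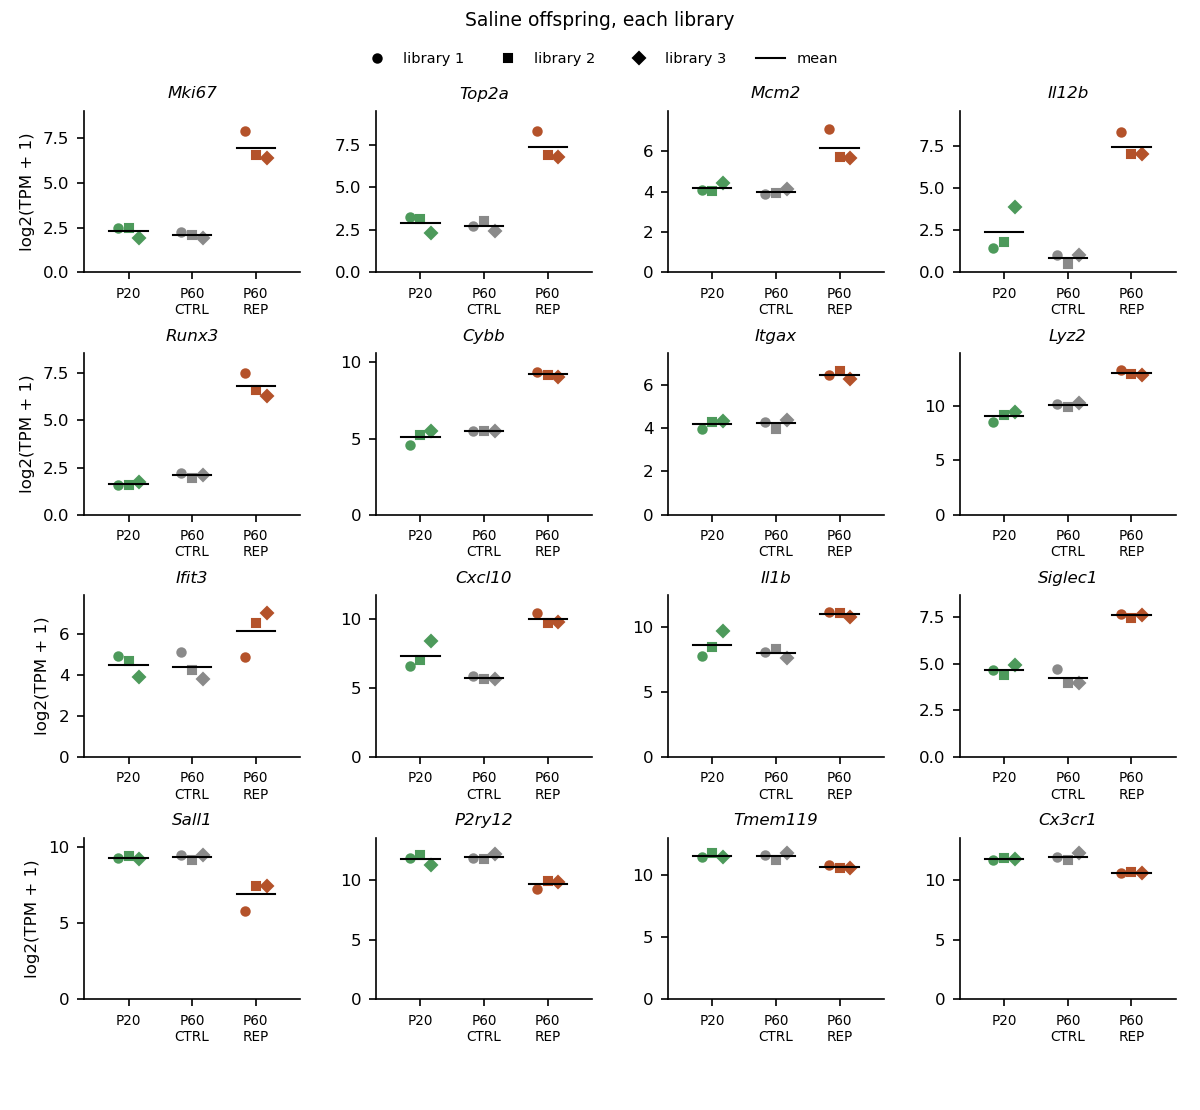
Levels of 16 genes on the log2(TPM + 1) scale in each library of P20 Saline (green), P60 Saline + CTRL (grey) and P60 Saline + MG-REP (brown); symbols mark libraries 1 to 3, which are not paired across groups, and bars are group means. Repopulated libraries lie above both other groups in the first 8 genes and below both in Sall1, P2ry12, Tmem119 and Cx3cr1. Among the repopulated libraries, library 1 is the highest in Mki67, Top2a, Mcm2, Il12b, Runx3, Cybb, Lyz2, Cxcl10, Il1b, Siglec1 and Tmem119. It is the lowest of them in Ifit3, Sall1, P2ry12 and Cx3cr1.

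By the fixed rule, the 10 largest rises whose groups did not overlap were Runx3, Il12b, Cyp4f18, Tnfsf8, Ube2c, Sh2d1b1, Mki67, Gdf3, Ccna2 and Top2a. Runx3 (chr4:135120645-135177990), a Runt transcription factor known from lymphocytes and dendritic cells, went from 1.94, 1.94 and 2.35 TPM to 179, 96.3 and 77.9 TPM (5.18, SE 0.29, limma adjusted p = 7.93e-12), with 2.90 to 3.59 TPM in P60 Saline + CTRL. Il12b, the shared p40 chain of interleukins 12 and 23, went from 1.76, 2.45 and 13.8 TPM to 314, 127 and 128 TPM (5.06, SE 0.51, limma adjusted p = 4.95e-08). P20 library 3 held the highest P20 value of Il12b, still far below every repopulated library.

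Cyp4f18, a cytochrome that acts on leukotriene B4, was at 3.51, 6.40 and 12.3 TPM at P20 and at 346, 225 and 206 TPM after repopulation (5.05, SE 0.33). Tnfsf8, the CD30 ligand, was at 0.71, 0.25 and 1.28 TPM and at 56.0, 48.4 and 57.2 TPM (5.01, SE 0.23, limma adjusted p = 1.35e-13). It also rose in P60 Saline + CTRL, by 0.81 (limma adjusted p = 0.047), to 1.23 to 2.94 TPM. Sh2d1b1, the adaptor EAT-2 of SLAM receptors, rose from 0.88, 1.17 and 1.60 TPM to 72.7, 52.8 and 42.4 TPM (4.66, SE 0.37). Gdf3, a TGF-beta family ligand, was at 0.15, 0 and 0 TPM at P20 and at 24.6, 23.8 and 20.9 TPM after repopulation.

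Of the 10 largest falls, some were also called without depletion and others were not, which does not show that the latter stayed level. Gpr165 (chrX:96713468-96719388), an orphan receptor, fell from 213, 223 and 118 TPM to 0.07, 1.19 and 1.54 TPM (-6.62, SE 0.40, limma adjusted p = 1.57e-11), with 75.5 to 119 TPM in P60 Saline + CTRL. Myo18b, an unconventional myosin, fell from 57.8, 51.0 and 26.9 TPM to 0.20, 0.20 and 0.40 TPM (-5.12, SE 0.27), while P60 Saline + CTRL stood at 25.3 to 46.6 TPM. Upk1b, a uroplakin, fell by 4.05 (SE 0.42), Tnfrsf17, the BCMA receptor, by 3.94 (SE 0.38), and Mlph, melanophilin, by 3.50 (SE 0.34). For these 5 genes and Gm13889 (a fall of 3.58, SE 0.21) P60 Saline + CTRL did not differ from P20 at the threshold, and the direct contrast with P60 Saline + CTRL was called for each (limma adjusted p of 2.6e-09 at most).

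Gdf15, a stress-responsive cytokine of the TGF-beta family, fell from 623, 1032 and 1198 TPM to 63.3, 75.1 and 69.7 TPM (-3.71, SE 0.31), but P60 Saline + CTRL was also low, at 111, 158 and 88.3 TPM (-2.97, limma adjusted p = 8.29e-06). The same held for Igfbp3, a binding protein of insulin-like growth factors, with -3.55 (SE 0.52) after repopulation and -3.35 in P60 Saline + CTRL, and for the long noncoding RNA 9630013A20Rik, with -3.61 (SE 0.55) and -2.91. In these 3 the repopulated and P60 Saline + CTRL microglia did not differ at the threshold (limma adjusted p = 0.082, 0.83 and 0.40), and 9630013A20Rik was not called with the oligodendrocyte covariate (-0.71, limma adjusted p = 0.32). Eln, elastin, fell by 3.55 (SE 0.40) after repopulation and by 2.49 in P60 Saline + CTRL, with the direct contrast just past the threshold (limma adjusted p = 0.049).

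**Figure D4:**
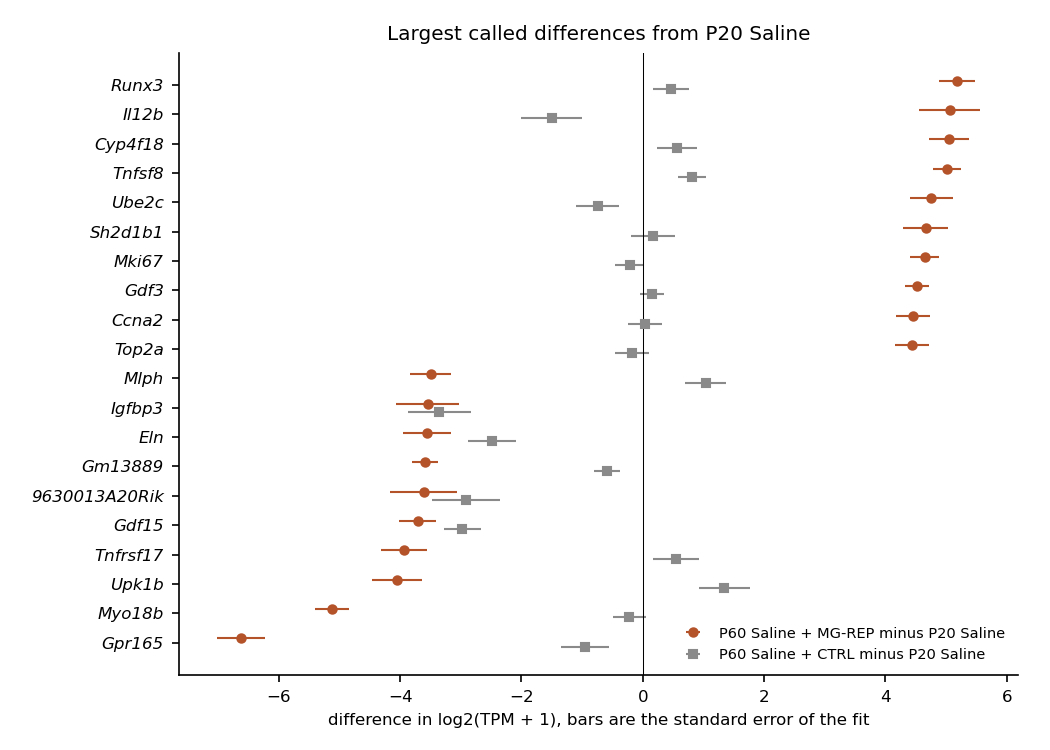
Difference from P20 Saline in log2(TPM + 1), with the standard error of the fit as bars, for the 10 largest rises and 10 largest falls by the fixed rule, in P60 Saline + MG-REP (circles) and P60 Saline + CTRL (squares). The squares lie near 0 for most genes, and near the circles for Gdf15, Igfbp3 and 9630013A20Rik; both differences share the P20 libraries.

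Genes of the state known as disease-associated microglia, which phagocytic microglia take on around plaques or dying cells, rose in part. Of 30 transcripts 17 rose (56.7%) and 3 fell (10%), with a median of 0.71, and 15 rose without MG-REP library 1 and 11 with the oligodendrocyte covariate. Those that fell included Csf1 (-1.16), and the lowest log2 difference in the list was -1.34. Cybb, the catalytic subunit of the phagocyte NADPH oxidase, went from 22.9, 36.2 and 44.7 TPM to 676, 585 and 537 TPM (4.12, SE 0.24, limma adjusted p = 1.13e-11). Lyz2, lysozyme, went from 370, 575 and 697 TPM to 9673, 7945 and 7456 TPM (3.97, SE 0.24, limma adjusted p = 2.14e-11). P60 Saline + CTRL had 961 to 1206 TPM of Lyz2, a smaller rise that was also called (1.06, limma adjusted p = 0.0167). In both genes library 1 was the highest of the repopulated libraries. The part of other myeloid cells in these levels was not tested.

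Ch25h, cholesterol 25-hydroxylase, rose by 3.65 (SE 0.42), Cd52, a surface glycoprotein of leukocytes, from 280, 294 and 322 TPM to 2841, 2414 and 2447 TPM (3.10, SE 0.18), and Gpnmb by 2.42 (SE 0.33). Itgax, the CD11c integrin, rose from 14.8, 18.6 and 19.0 TPM to 88.5, 101 and 76.8 TPM (2.27, SE 0.21, limma adjusted p = 1.43e-08). Other defining members differed little or stood at low values. The listed Trem2 transcript was at 5.49 to 10.7 TPM at P20 and 6.89 to 7.88 TPM after repopulation (0.05, limma adjusted p = 0.918), and Lpl, lipoprotein lipase, at 38.6 to 61.6 TPM and 42.9 to 111 TPM (0.51, limma adjusted p = 0.189, called without MG-REP library 3 at 0.82 and limma adjusted p = 0.0378). The listed transcript of Spp1, osteopontin, rose from 0.18 to 0.21 TPM to 0.90 to 2.05 TPM (0.98, SE 0.23, limma adjusted p = 0.00176). Of 3 Apoe transcripts, each at 10.1 TPM or less, 2 rose (1.45 and 1.16) and 1 was not called (0.31); the second was not called without P20 library 2 (limma adjusted p = 0.0555). These low values are those of single transcript entries and not of the whole gene, since the table splits some genes into several entries.

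Lysosomal genes went both ways. Of 40 transcripts 14 rose (35%) and 5 fell (12.5%), with a median of 0.25, and 7 rose and 2 fell with the oligodendrocyte covariate. The log2 differences ran from -1.34 to 3.68, and the members named next are risers only. Ctse, cathepsin E, rose from 1.19, 1.84 and 7.15 TPM to 37.9, 49.8 and 53.2 TPM (3.68, SE 0.35, limma adjusted p = 2.81e-08). Both transcripts of Ctsc, cathepsin C, rose (1.91 and 1.63), as did Gusb, beta-glucuronidase (1.49, SE 0.19), and Glb1, beta-galactosidase (1.48, SE 0.17).

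Most interferon response genes rose. Of 38 transcripts 30 rose and none fell (median 1.31), 35 rose without MG-REP library 1, 24 without MG-REP library 2 or 3, and 16 with only the 6 libraries fitted. Of the 38, 21 had no overlap between groups, against 12.2% of all transcripts above P20 in every pair. In P60 Saline + CTRL against P20 none rose and 2 fell. Ifi27l2a, an interferon-induced mitochondrial protein, was at 20.3, 28.3 and 20.3 TPM at P20 and at 402, 438 and 490 TPM after repopulation (4.22, SE 0.21, limma adjusted p = 6.52e-13). Oas3 and Oas1a, sensors of double-stranded RNA, rose by 3.22 (SE 0.34) and 2.16 (SE 0.29), with Oas3 at 12.8, 32.1 and 39.2 TPM against 0.85 to 2.87 TPM. Both transcripts of Zbp1, a sensor of Z-form nucleic acid, rose (1.90 and 2.15). Ifit3 was at 29.8, 24.7 and 13.9 TPM at P20 and at 28.1, 94.2 and 129 TPM after repopulation (1.65, SE 0.42, limma adjusted p = 0.00455), and library 1 lay within the P20 range.

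The interferon-stimulated response element, the letters that STAT and IRF factors bind, is shown for the same reason. This element, read as GAAA, any 2 bases and GAAA, stood on either strand in 13 of the 27 interferon response promoters held in the reference (48.1%) and in 3.04% of all 27018, and in 2 of the 34 mitosis promoters (5.88%). Capitals mark the match, and TTTCAGTTTC is the same element on the opposite strand.
Oas3, chr5:120777715-120777744, minus strand: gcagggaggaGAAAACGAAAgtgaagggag
Oas1a, chr5:120907526-120907549, minus strand: tcgggaaatgGAAACTGAAAatct
Cxcl10, chr5:92349083-92349112, minus strand: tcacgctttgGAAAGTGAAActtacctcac
Ifit3, chr19:34583397-34583426, plus strand: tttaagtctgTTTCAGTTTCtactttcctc

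Antigen presentation on MHC class I, which interferon is known to raise, moved in the same direction: 12 of 15 transcripts rose and none fell (median 0.88), and 7 rose with the oligodendrocyte covariate. Nlrc5, the class I transactivator, rose from 9.42, 8.92 and 6.13 TPM to 15.4, 39.0 and 39.0 TPM (1.72, SE 0.36). The immunoproteasome subunits Psmb9 and Psmb8 rose by 1.47 (SE 0.20) and 1.20 (SE 0.19), and H2-D1 by 1.14 (SE 0.17). H2-K1 was at 865, 1207 and 1089 TPM and at 1248, 2080 and 1801 TPM (0.68, SE 0.20, limma adjusted p = 0.00992), a call lost under quantile normalization or without either P20 library 1 or MG-REP library 2 (limma adjusted p of 0.0662 to 0.0698).

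MHC class II genes were mixed, with 3 of 11 higher (27.3%) and 2 lower (18.2%). The number higher was 1 without P20 library 1 or MG-REP library 2, and none were higher with the oligodendrocyte covariate. H2-DMa, which loads peptide onto class II, rose by 1.21 (SE 0.18), while H2-Oa, a chain of its inhibitor, fell by 1.09 (SE 0.25) and the costimulator Cd80 fell by 0.94 (SE 0.16). H2-Ab1 and H2-Aa, the chains of the class II molecule itself, rose by 0.87 and 0.81 (limma adjusted p = 0.0203 and 0.0412), but H2-Aa stood at 303 to 507 TPM in P60 Saline + CTRL against 259 to 418 TPM after repopulation, and both calls were lost without P20 library 1 (limma adjusted p = 0.16 and 0.207) or without MG-REP library 2 (limma adjusted p = 0.109 and 0.185), as was H2-Aa without P20 library 3 or MG-REP library 1 (limma adjusted p = 0.103 and 0.0507) or under quantile normalization (limma adjusted p = 0.101). Cd74, the invariant chain, was not called (0.85, limma adjusted p = 0.0596), but was without P20 library 2 or MG-REP library 3 (limma adjusted p = 0.0247 and 0.041). Against P60 Saline + CTRL the direct contrast called 1 of the 11 class II transcripts higher and 4 lower after repopulation.

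Cytokine transcripts rose in 9 of 26 cases (34.6%) and fell in 4 (15.4%). The counts were 3 and 3 with the oligodendrocyte covariate, 7 and 0 in limma with only the 6 libraries fitted, and 10 and 1 under median-ratio scaling. Il1b, interleukin 1 beta, was at 219, 343 and 811 TPM at P20, at 194 to 313 TPM in P60 Saline + CTRL, and at 2228, 2160 and 1744 TPM after repopulation (2.37, SE 0.32, limma adjusted p = 5.18e-06). Il1rn, the interleukin 1 receptor antagonist, rose by 1.50 (SE 0.25) at levels up to 3.47 TPM, and Il10 from 2.65, 4.92 and 3.72 TPM to 23.8, 12.1 and 9.64 TPM (1.69, SE 0.36). Il10 was not called with the oligodendrocyte covariate (limma adjusted p = 0.66). Ifnb1, interferon beta, was at 0.82, 1.45 and 2.23 TPM and at 3.72, 7.07 and 6.75 TPM (1.45, SE 0.41, limma adjusted p = 0.00859), not called without P20 library 1 (limma adjusted p = 0.0522). Tnf overlapped between groups, at 16.4, 27.0 and 69.2 TPM and at 68.7, 52.4 and 47.8 TPM (0.80, SE 0.36, limma adjusted p = 0.0967), and was called without P20 library 3 (1.36, limma adjusted p = 0.00278).

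Of 25 transcripts of chemokines and their receptors 11 rose and 5 fell (median 0.96). Cxcl10, the interferon-induced ligand of CXCR3, went from 93.2, 128 and 333 TPM to 1363, 828 and 886 TPM (2.65, SE 0.32), and was at 48.1 to 56.8 TPM in P60 Saline + CTRL, below P20 (-1.61, limma adjusted p = 0.00603). Ccl2, the monocyte attractant, rose by 2.54 (SE 0.29), Cxcl2, a neutrophil attractant, by 2.50 (SE 0.33), and the receptor Ccr2 from 8.24, 11.4 and 10.8 TPM to 60.6, 64.1 and 49.9 TPM (2.41, SE 0.28). MG-REP library 2, rich in monocyte and neutrophil markers, held the highest of these Ccr2 values (64.1 TPM). The part of such cells in the Ccr2 level was not tested. Ccl24, the eotaxin 2, fell from 22.9, 35.7 and 31.9 TPM to 2.78, 2.53 and 4.25 TPM (-2.90, SE 0.30). Ccl3 and Ccl4, among the most abundant chemokines at 1990 TPM or more in all 6 libraries, were not called (-0.13 and -0.19).

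Innate receptors and their signalling went both ways. Of 23 transcripts of Toll-like receptors and adaptors 5 rose (21.7%) and 4 fell (17.4%), and 2 rose and 3 fell with the oligodendrocyte covariate. Tlr2, the receptor for bacterial lipopeptides, rose from 210, 267 and 490 TPM to 1490, 1244 and 1190 TPM (2.11, SE 0.23, limma adjusted p = 2.05e-07), whereas Tlr5, the flagellin receptor, fell from 35.6, 38.3 and 26.2 TPM to 5.08, 4.34 and 3.08 TPM (-2.74, SE 0.23, limma adjusted p = 2.46e-09). Cd14, the co-receptor, rose by 1.27 (SE 0.27), a call lost with the oligodendrocyte covariate (0.27, limma adjusted p = 0.64). Of 23 NF-kB pathway transcripts 4 rose (17.4%) and 3 fell (13%), not far from the shares over all transcripts, among them Tnip3 (1.49, SE 0.30) and Tnfaip2 (1.46, SE 0.29) up, and the adhesion molecule Icam1 down (-0.97, SE 0.18). With the oligodendrocyte covariate none of the 23 rose, Tnip3 stood at 0.87 (limma adjusted p = 0.215) and Tnfaip2 at 0.50 (limma adjusted p = 0.438), and with only the 6 libraries fitted 1 rose. Against P60 Saline + CTRL the direct contrast called 8 of the 23 NF-kB transcripts higher and 1 lower after repopulation.

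Of 15 complement transcripts 3 rose and 3 fell (20% each), so the share that fell was that of all transcripts. C1qa, the recognition subunit that tags synapses, was not called at 6315 to 9293 TPM over the 6 libraries (0.13, limma adjusted p = 0.685). C3, the central component, was at 8.14, 9.12 and 9.07 TPM and at 12.9, 64.1 and 44.8 TPM (1.83, SE 0.35, limma adjusted p = 0.000303), lowest of the repopulated libraries in library 1. Cfp, properdin, rose from 43.3, 43.7 and 31.8 TPM to 332, 133 and 113 TPM (2.10, SE 0.27), and was highest in library 1. C2 fell by 2.18 (SE 0.25), the decay-accelerating factor Cd55 by 1.40 (SE 0.30), and Itgb2, the beta chain of complement receptor 3, rose by 0.95 (SE 0.19). C4b was not called (0.17, limma adjusted p = 0.756).

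Of 18 transcripts of the TNF family and immune checkpoints 6 rose (33.3%) and 3 fell (16.7%), and 3 rose with the oligodendrocyte covariate, with only the 6 libraries fitted or without P20 library 1. Tnfsf13b, the B cell survival factor BAFF, went from 5.93, 8.38 and 8.76 TPM to 158, 112 and 92.5 TPM (3.79, SE 0.29, limma adjusted p = 8.16e-10), and P60 Saline + CTRL stood between at 24.0 to 34.2 TPM (1.83, limma adjusted p = 0.000913). Pdcd1, the checkpoint receptor PD-1, went from 1.79, 2.31 and 1.78 TPM to 47.8, 42.0 and 30.1 TPM (3.77, SE 0.26). Lag3, another checkpoint receptor, went the other way, from 863, 1158 and 904 TPM to 50.0, 443 and 435 TPM (-2.17, SE 0.48, limma adjusted p = 0.00133), lowest in library 1. Its call was lost with only the 6 libraries fitted (limma adjusted p = 0.104) and with the oligodendrocyte covariate (-1.44, limma adjusted p = 0.206).

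Of 55 cytosolic ribosome transcripts 35 rose and none fell, with a median of 0.59 (18 rose and 2 fell with the oligodendrocyte covariate), and the largest differences named were those of Rps26 (1.05, SE 0.09) and Rpl32 (1.04, SE 0.13). Many ribosomal genes have near-identical pseudogene copies, so their reads are uncertain. Of 52 oxidative phosphorylation transcripts 21 rose and none fell (median 0.33), and 39 rose under median-ratio scaling and 12 with only the 6 libraries fitted, with Cox5a (0.76, SE 0.15) and Atp5e (0.70, SE 0.11) in the lead. Glycolysis had 8 of 25 higher (32%) and 3 lower (12%), with the listed Gapdh transcript higher (1.08, SE 0.14) and the lactate transporter Slc16a1 lower (-1.81, SE 0.29), the latter not called with the oligodendrocyte covariate (-0.79, limma adjusted p = 0.18).

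Of 30 transcripts of cholesterol synthesis and lipid handling 5 rose (16.7%) and 8 fell (26.7%). Only 2 fell without P20 library 1 or without MG-REP library 1, 3 with only the 6 libraries fitted, and none with the oligodendrocyte covariate. Insig1, the sterol-regulated retention factor, fell by 1.03 (SE 0.16) and by 0.96 in P60 Saline + CTRL (limma adjusted p = 0.00166). Lss, lanosterol synthase, fell by 1.04 (SE 0.37, limma adjusted p = 0.0343), a call lost without P20 library 1 (-0.71, limma adjusted p = 0.21), MG-REP library 1 (limma adjusted p = 0.135) or MG-REP library 2 (limma adjusted p = 0.0522). The list median against P20 was -0.35 after repopulation and -0.44 in P60 Saline + CTRL. The direct contrast between these groups called 7 of the 30 higher after repopulation and 0 lower.

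Of 28 immediate early transcripts, which tissue dissociation is known to induce, 3 rose (10.7%) and 5 fell (17.9%), shares close to those over all transcripts, and their summed level was 40831 to 44484 TPM at P20, 24163 to 33845 TPM after repopulation and 52104 to 71052 TPM in P60 Saline + CTRL. Rhob fell by 1.42 (SE 0.24), Atf3 by 1.00 (SE 0.23) and Junb by 0.72 (SE 0.18), the last not called under median-ratio scaling (-0.50, limma adjusted p = 0.172), while 2 Egr3 transcripts at 3.30 TPM or less rose (1.28 and 1.53). Against P60 Saline + CTRL the direct contrast called 6 of the 28 immediate early transcripts higher and 14 lower after repopulation. Of 25 transcripts of apoptosis and p53 targets 9 rose (36%) and 3 fell (12%), and 4 rose with the oligodendrocyte covariate. Both transcripts of Cdkn1a, the cell cycle inhibitor p21, rose (1.15 and 1.40), as did the proapoptotic Bak1 (1.15, SE 0.17) and the antiapoptotic Bcl2a1d (1.86, SE 0.24), which is part of a family of near-identical copies.

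Markers of other cells had sums that lay lower in every repopulated than in every P20 library for 3 of 10 cell type lists. Of single transcripts, 4246 of 14225 (29.8%) lay lower in the same way. Myelin and oligodendrocyte transcripts fell in 20 of 22 cases (median -2.06). The number was 14 without MG-REP library 1 or without P20 library 1, and 12 with only the 6 libraries fitted. None fell with the oligodendrocyte covariate, which is built from the markers of that cell type. Ugt8a fell from 699, 348 and 128 TPM to 12.5, 38.6 and 48.6 TPM (-3.40, SE 0.60), and Mog (-2.94, SE 0.54), Cnp (-2.93 and -1.36 for its 2 transcripts) and Cldn11 (-2.92, SE 0.54) moved likewise. The listed Mbp transcript was not called (-0.39, limma adjusted p = 0.222). P60 Saline + CTRL was also lower than P20, with 3216 to 5532 TPM over the list and 5 transcripts called. The direct contrast with P60 Saline + CTRL called 2 of the 22 lower after repopulation and none higher. Less oligodendrocyte material in the samples and less RNA per such cell cannot be told apart, and the part of either in the falls reported above was not tested beyond the covariate.

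Choroid plexus transcripts fell in 8 of 8 cases (median -2.16), 3 of them without MG-REP library 1. Ttr, transthyretin, went from 3456, 7012 and 6508 TPM to 402, 1339 and 939 TPM (-2.76, SE 0.69), with 486 to 2593 TPM in P60 Saline + CTRL. None of the 8 was called in the direct contrast with P60 Saline + CTRL. Of 9 oligodendrocyte precursor transcripts 4 fell, 2 of them without P20 library 1 or without MG-REP library 1. Gpr17 was lower by 3.33 (SE 0.76), a fall from 266, 67.8 and 48.8 TPM to 3.68, 11.5 and 14.3 TPM. The summed levels of these 3 cell types did not overlap between groups (exact permutation test, p = 0.1 each, the smallest possible).

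The remaining lists overlapped in their sums. Astrocyte transcripts were called in 0 of 18 cases in limma and erythroid transcripts in 0 of 4. Neuron transcripts were lower in 2 of 19 (10.5%) and endothelial and mural transcripts in 2 of 17 (11.8%). These shares lie below the 20.2% of all transcripts called lower. Yet the differences of all 17 endothelial and mural transcripts were negative (-1.47 to -0.21, median -0.77). Of the 17, 8 lay below P20 in every pair of libraries, against 29.8% of all transcripts. The direct contrast with P60 Saline + CTRL called 6 of the 17 lower after repopulation and none higher. Meg3, a noncoding RNA of neurons, fell in both transcripts (-1.26 and -1.70), and Kdr, the endothelial VEGF receptor, fell by 1.47 (SE 0.44, limma adjusted p = 0.0136), but Kdr and the first Meg3 transcript were not called without P20 library 1 (limma adjusted p = 0.0772 and 0.0594) or MG-REP library 1 (limma adjusted p = 0.0993 and 0.0538), nor Kdr without P20 library 3 (limma adjusted p = 0.0545). The endothelial count was 5 without P20 library 2 and 0 without P20 library 1, P20 library 3 or MG-REP library 1, and the neuron count was 1 without P20 library 1. MG-REP library 1, the richest in cell cycle transcripts, had the lowest astrocyte, neuron, endothelial, precursor and choroid plexus sums of the 6 libraries, for example 312 TPM of neuron transcripts against 684 to 1178 TPM in the other 5.

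**Figure D5:**
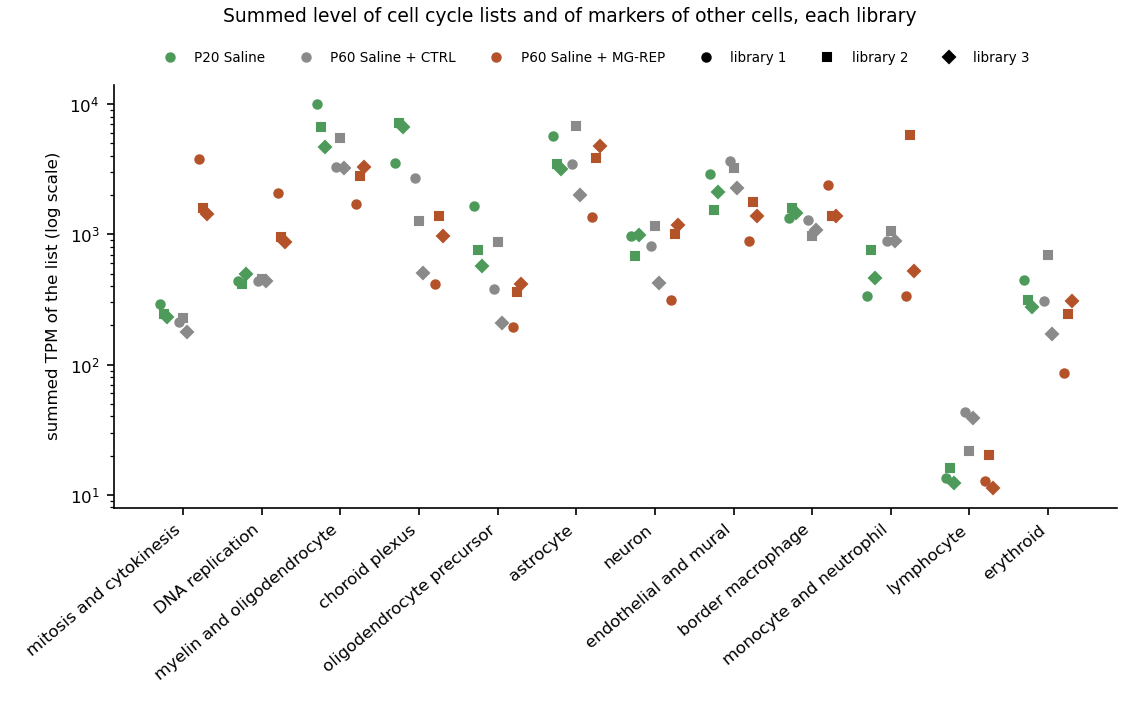
Summed TPM of each list on a log scale in each library of P20 Saline (green), P60 Saline + CTRL (grey) and P60 Saline + MG-REP (brown). The cell cycle lists lie higher in all 3 repopulated libraries, the myelin, precursor and choroid plexus lists lie lower than at P20, and the monocyte and neutrophil list is high in MG-REP library 2 only (5845 TPM).

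Markers of macrophages at brain borders were divided, with 2 of 13 higher and 6 lower, or 3 lower without MG-REP library 2 or under median-ratio scaling. Cd209f fell from 16.4, 18.4 and 6.70 TPM to 0.43, 0.25 and 0.74 TPM (-3.24, SE 0.41), while P60 Saline + CTRL held 20.6 to 28.3 TPM. Lyve1 fell by 1.86 (SE 0.35) and also in P60 Saline + CTRL (-1.36, limma adjusted p = 0.0299), and Mrc1, the mannose receptor, by 0.74 (SE 0.22, limma adjusted p = 0.0131), not called under median-ratio scaling (limma adjusted p = 0.165), without MG-REP library 2 (limma adjusted p = 0.0558) or without MG-REP library 3 (limma adjusted p = 0.0578). Siglec1, sialoadhesin, which interferon also induces, rose from 23.8, 19.6 and 29.5 TPM to 205, 174 and 193 TPM (2.94, SE 0.27, limma adjusted p = 1.43e-08), and Pf4, platelet factor 4, from 168, 264 and 129 TPM to 901, 422 and 408 TPM (1.58, SE 0.34). The sums of the 13 transcripts overlapped (1345 to 1584 TPM and 1377 to 2408 TPM).

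Of 16 monocyte and neutrophil transcripts 2 rose (12.5%; Ccr2 and S100a4) and 1 fell (6.25%; Plac8), against 10.8% and 20.2% of all transcripts. S100a4 was at 15.8, 23.5 and 36.1 TPM and at 181, 63.3 and 64.2 TPM (1.88, SE 0.38), and was not called with the oligodendrocyte covariate (limma adjusted p = 0.41). Plac8 was at 2.06, 28.6 and 3.15 TPM after repopulation, so it fell in 2 libraries and not in the library rich in monocyte and neutrophil markers. Its call (-1.69, limma adjusted p = 0.0326) was lost under median-ratio scaling and quantile normalization (limma adjusted p = 0.0701 and 0.0844) and when any library but MG-REP library 2 was left out (0.0556 to 0.23). Of 11 lymphocyte transcripts, which summed to 11.2 to 20.2 TPM, 2 rose and 2 fell (18.2% each), among them Ms4a4b (2.14, SE 0.36) and Cd79b (-1.75, SE 0.25), all at a few TPM.

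Calls of named genes that ended with the oligodendrocyte covariate, beyond those stated above, were those of Pcna (0.0081), Cd55 (-0.81), Itgb2 (0.38), H2-DMa (0.60), Psmb8 (0.67), Insig1 (-0.49), Bak1 (0.53), 1 Cdkn1a transcript (0.70), Pf4 (0.99), Kdr (-0.66), both Meg3 transcripts (-0.61 and -0.73), Plac8 (-1.12) and Lss (0.38), each of which moved by over 1.5 times, and those of the myelin and precursor genes given above (Ugt8a, Mog, 1 Cnp transcript, Cldn11 and Gpr17, -0.21 to -0.044). Those of H2-Oa, H2-Ab1, H2-Aa, H2-K1, Ifnb1, Tgfbr1, Csf1, Spp1, Junb and Ttr also ended there, with values closer to the first. With only the 6 libraries fitted the calls of H2-Oa, H2-Ab1, H2-Aa, H2-K1, C3, Tnip3, Tnfaip2, Csf1, Csf1r, 1 Apoe transcript, Lss, Junb, Kdr, Plac8, Pcna and Ifit3 ended (limma adjusted p of 0.0527 to 0.183), at the same log2 differences.

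The same step in offspring of poly(I:C)-injected dams (MIA) was compared by the difference of the differences, which was called for 997 of 14225 transcripts (7.01%), 686 (4.82%) more positive and 311 (2.19%) more negative in saline offspring. The mitosis list accounted for 36 of its 40 transcripts and the DNA replication list for 24 of 32, all more positive in saline offspring. Mki67 stood at 2.50 to 3.16 TPM in P60 MIA + MG-REP, a log2 difference from P20 MIA of -0.45, against 4.65 in saline offspring (difference 5.10, SE 0.34, limma adjusted p = 1.23e-09). Il12b, at 1.65 to 3.98 TPM in P60 MIA + MG-REP, gave a difference of 5.23 (SE 0.72, limma adjusted p = 2.4e-05), and Cybb, at 45.4 to 68.2 TPM, of 3.50 (SE 0.34, limma adjusted p = 1.92e-07). Sall1 stood at 538 to 600 TPM in P60 MIA + MG-REP, and its fall was 2.12 larger in saline offspring (SE 0.42, limma adjusted p = 0.0017).

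For some genes the difference between saline and MIA offspring was not called. Tnfsf8 rose by 4.13 in MIA offspring (difference 0.88, SE 0.32, limma adjusted p = 0.106), Pdcd1 by 3.10 (difference 0.67, SE 0.37, limma adjusted p = 0.329) and Tnfsf13b by 3.16 (difference 0.63, SE 0.41, limma adjusted p = 0.423). Myo18b fell by 4.22 in MIA offspring (difference -0.90, SE 0.39, limma adjusted p = 0.191). These values do not show that the changes were equal. For Gpr165, which fell by 4.44 in MIA offspring, by 2.19 less than in saline offspring, the difference was called (SE 0.56, limma adjusted p = 0.0169).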

How the data were processed

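Microglia were isolated with CD11b beads from whole brains, and RNA was sequenced by the authors as unstranded poly(A) libraries of single-end reads. Per the labels and the study's methods, the authors aligned reads to mm10 with Rsubread, counted them per RefSeq transcript with featureCounts and kept transcripts that passed a low-count filter over all 30 libraries. The deposited values are TPM, one column per library, with the authors' module of each transcript. The formula behind the TPM is not given in the sources used here, and the counts were not used here. Some genes are split into several transcript entries, and without strand antisense partners share reads.

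Values were analysed as log2(TPM + 1) with limma 3.58.1 (R 4.3.3, trend), with all 30 libraries in 10 groups of 3 so that the groups share 1 estimate of spread, and p-values were adjusted by Benjamini-Hochberg over 14225 transcripts at 0.05. No library was dropped. Depth was estimated from the spacing of low values, and precision is limited by it and by 3 libraries per group. The labels name no litter or sex. Per the study's methods an E17 library is a pool of 1 litter and a P7 library a pool of 3 brains. The shared spread behind the p-values thus comes partly from pools and other ages, and not only from these P20 and P60 mice. Of 810 list genes 678 matched the table. Summed TPM of lists was compared by the exact two-sided permutation test. Names follow a rule: the 10 largest called rises and falls without overlap, up to 5 called members per list by size, and a short fixed set, of which some genes are not reported here. The members and lists were chosen with earlier results of these data known. Promoter sequences are RefSeq, GRCm38.p6, the first listed start of each gene. Alternatives changed the pseudocount (0.1), a mean TPM filter of 1, the scaling, the trend, the libraries fitted, a replicate block, an oligodendrocyte covariate and each library left out. Same-numbered P20 and repopulated libraries did not deviate together, so the numbers were not taken as pairs.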

Additional observations from a re-analysis of the deposited data

Results flagged for a closer look

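The results below were singled out because the step from P20 to repopulated P60 microglia differed between saline and MIA offspring. Each had a limma adjusted p under 0.05 for that difference itself. They were taken from the named genes, most of which were picked for a called difference in saline offspring. The same saline libraries enter both, so this choice tilts the values towards a larger step in saline offspring. Over all transcripts 7.01% were called, a share with which these picked genes cannot be compared. Values are the log2 difference in saline offspring minus that in MIA offspring, 3 libraries per group, and MG-REP library 1 contributes to each.

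Among cell cycle genes the value was 5.67 for Ube2c, 5.10 for Mki67, 4.94 for Ccna2, 4.86 for Ccnb2, 4.79 for Top2a, 4.63 for Rrm2, 3.29 for Clspn, 2.86 for Chaf1b, 2.52 for Gins2, 2.51 for Chaf1a, 2.44 for Mcm2 and 0.88 for Pcna. Among the other largest rises it was 3.70 for Runx3, 5.23 for Il12b, 4.15 for Cyp4f18, 2.45 for Sh2d1b1 and 3.87 for Gdf3. Among the largest falls it was -2.19 for Gpr165, -3.20 for Upk1b, -1.76 for Tnfrsf17, -1.20 for Gm13889 and -3.19 for Mlph.

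Homeostatic and TGF-beta genes gave -2.12 for Sall1, -1.56 for P2ry12, -0.98 for Cx3cr1 and -0.63 for Smad3. Phagocyte and lysosomal genes gave 3.50 for Cybb, 2.55 for Lyz2, 2.56 for Ch25h, 1.91 for Cd52, 1.62 for Gpnmb, 0.98 for Itgax, 1.43 for Spp1, 1.50 for Lpl, 2.23 for Ctse, 1.70 and 1.12 for the transcripts of Ctsc, 1.38 for Gusb and 1.38 for Glb1. Lpl and Spp1 stand at low or uncalled values in the saline step.

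Interferon and antigen presentation genes gave 3.43 for Ifi27l2a, 2.75 for Oas3, 3.31 for Cxcl10, 1.82 for Oas1a, 2.21 for 1 transcript of Zbp1, 0.96 for Psmb9, -1.52 for H2-Oa and -0.93 for Cd80. Cytokine, chemokine and receptor genes gave 2.73 for Il1b, 1.43 for Il1rn, 1.96 for Ifnb1, 1.75 for Ccl2, 2.99 for Cxcl2, -1.42 for Ccl24, 1.73 for Tnip3, 2.48 for Cfp, 1.72 for Tlr2, -1.82 for Tlr5, 1.25 for Cd14 and -2.27 for Lag3.

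The remaining values were 0.97 for Rps26, 0.94 for Rpl32, 1.08 for Gapdh, 1.01 and 0.84 for the transcripts of Egr3, -1.21 for Rhob, 1.72 for Bcl2a1d, 1.57 for Cdkn1a, 1.27 for Bak1, -2.92 for Cd209f, 2.59 for Siglec1, 2.60 for Pf4 and 1.96 for Ms4a4b. Groups of 3 are too small for the check on single outlying libraries.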

How the results depend on the processing

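Of the 4409 calls between repopulated and P20 microglia, the count was 2534 when only the groups compared were fitted and 2333 with the oligodendrocyte covariate, and 3122 (without MG-REP library 1) to 4121 when 1 library was left out. The 499 calls of P60 Saline + CTRL against P20 became 5 with only the groups compared, 1251 with the covariate and 186 (without P20 library 3) to 383 with 1 library left out. The 997 calls of the difference between saline and MIA offspring became 664 with the covariate and 672 to 1139 with 1 library left out. The cause was not tested. With the replicate number as a block the counts were 4393, 463 and 984; same-numbered libraries showed correlations of deviations of -0.40, 0.0038 and -0.31, so the numbers share only a name. Over the 22 function lists, 330 of 595 transcripts were called, 230 with only the groups compared, 235 with the covariate and 292 to 317 with 1 library left out. Of 10 cell type lists 3 did not overlap, and 3 or 4 in every alternative.

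Of 136 log2 differences named, 125 were called. A mean TPM filter, pseudocount 0.1, no trend and the block changed no call or direction among those fitted, only the groups compared lost 17 calls and the covariate 39. Directions reversed with the covariate for Lss (0.38), Trem2 (-0.33), Lpl (-0.42), C1qa (-0.41) and Mbp (0.32), with quantile normalization for C1qa (-0.071) and with median-ratio scaling for Ccl3 (0.090), Ccl4 (0.024) and Xist (0.055). Of these Lss alone was called at first. With 1 library left out the values spanned 0 for Trem2 (-0.11 to 0.32), C1qa (-0.045 to 0.22), C4b (-0.14 to 0.72), Ccl3 (-0.37 to 0.18) and Ccl4 (-0.35 to 0.051), none of them called. Differences of summed TPM spanned 0 for astrocyte (-1540 to 186), neuron (-228 to 205), border macrophage (-85.1 to 430), lymphocyte (-1.93 to 2.57) and monocyte and neutrophil markers (-89.6 to 2664), whose median log2 level differed by -0.24.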
